A study of Mus musculus with 6 samples.

Results

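The oocyte NLRP genes of the mouse, Nlrp2, Nlrp4a, Nlrp4b, Nlrp4c, Nlrp4f, Nlrp5, Nlrp9a, Nlrp9b, Nlrp9c and Nlrp14, were examined in RNA-seq of whole ovaries. The 10 genes were chosen by name, with earlier results of these data known, and all 10 were found among the 44788 genes listed in the count table. There were 3 ovary samples of each genotype, WT (Bnc1+/+) replicates 1, 4 and 7 and Bnc1tr/tr replicates 1, 2 and 3. All were C57BL/6 J mice aged 8 weeks, and the labels name no treatment. Bnc1tr/tr mice carry on both alleles a frameshift deletion in exon 4 of Bnc1, the gene of the zinc finger transcription factor basonuclin 1, inherited and so present in every tissue. The comparison asked which ovary transcripts differ between mice with the truncated and the intact gene.

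NLRP proteins carry a pyrin domain, a nucleotide-binding NACHT domain and leucine-rich repeats. Family members such as Nlrp3 act in immune cells as sensors that assemble inflammasomes, the complexes that activate caspase 1. The genes described here form a separate reproductive branch: they are transcribed in growing oocytes, and their products are stored in the egg and used in the early embryo. Nlrp5, also called Mater, is a core protein of the subcortical maternal complex (SCMC), a structure beneath the egg membrane that embryos need for their first cleavages. Nlrp2 and Nlrp4f are associated with the same complex, loss of Nlrp14 in the mother impairs early embryos, and the Nlrp4 and Nlrp9 genes are groups of copies that expanded in rodents.

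In GRCm38 with the GENCODE M21 annotation, 9 of the 10 genes lay on chromosome 7 and Nlrp4f alone on chromosome 13. From the start of chromosome 7 came Nlrp2 (chr7:5298547-5351035), Nlrp4c (chr7:6045161-6105150), Nlrp4b (chr7:10687789-10730168), Nlrp9b (chr7:19991465-20073306) and Nlrp5 (ENSMUSG00000015721.18, chr7:23385889-23441922). Nlrp9c (chr7:26322473-26403700), Nlrp4a (chr7:26435113-26476142) and Nlrp9a (chr7:26535023-26575615) followed close to each other, and Nlrp14 (ENSMUSG00000016626.10, chr7:107166990-107198102) lay farther along. Nlrp4f (ENSMUSG00000032999.10) lay at chr13:65177111-65205977. These spans cover exons and introns.

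Sequences before the annotated starts were available for 9 of the 10 genes, with 12 starts, all except Nlrp14. They are RefSeq reference sequence of GRCm38.p6 and are shown for Nlrp5 and for some copies of the Nlrp4 and Nlrp9 groups. Not shown are Nlrp4f and Nlrp9b, which held neither CCAAT nor CAGCTG in these 150 bases. Both windows lay inside the GENCODE spans of their genes, and all 150 bases of the Nlrp4f window lay in annotated exons. Nlrp2 and the other starts of Nlrp4a, Nlrp4b and Nlrp5 are also left out. Each line gives the 150 bases before a start, 5′ to 3′ in the direction of transcription, with CCAAT and CAGCTG, read on either strand, in capitals:
Nlrp4a (chr7:26435464-26435613, plus strand): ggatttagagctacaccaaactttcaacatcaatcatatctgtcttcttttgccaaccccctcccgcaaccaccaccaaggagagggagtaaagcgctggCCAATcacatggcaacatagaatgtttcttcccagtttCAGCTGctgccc
Nlrp4b (chr7:10687643-10687792, plus strand): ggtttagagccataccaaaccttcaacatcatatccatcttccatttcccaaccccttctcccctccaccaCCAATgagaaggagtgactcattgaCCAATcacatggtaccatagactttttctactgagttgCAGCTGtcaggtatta
Nlrp4c (chr7:6045011-6045160, plus strand): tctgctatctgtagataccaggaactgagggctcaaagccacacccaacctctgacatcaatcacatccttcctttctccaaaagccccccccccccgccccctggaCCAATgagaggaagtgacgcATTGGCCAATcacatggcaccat
Nlrp9a (chr7:26534873-26535022, plus strand): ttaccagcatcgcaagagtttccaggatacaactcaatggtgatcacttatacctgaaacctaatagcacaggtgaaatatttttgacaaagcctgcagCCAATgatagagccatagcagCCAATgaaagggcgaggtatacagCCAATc
Nlrp9c (chr7:26403701-26403850, minus strand): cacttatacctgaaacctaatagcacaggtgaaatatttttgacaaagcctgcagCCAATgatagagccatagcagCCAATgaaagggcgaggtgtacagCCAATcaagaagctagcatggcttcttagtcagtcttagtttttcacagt
Nlrp5 (chr7:23385739-23385888, plus strand): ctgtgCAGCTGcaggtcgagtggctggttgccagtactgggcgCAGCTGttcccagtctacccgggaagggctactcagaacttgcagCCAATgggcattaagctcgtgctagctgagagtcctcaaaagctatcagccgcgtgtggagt
The line for Nlrp4a precedes the second of its RefSeq starts and also lies inside the GENCODE span of its gene, outside annotated exons. The last 4 bases of the line for Nlrp4b lie in an annotated exon.

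Some copies of a group resembled each other in these windows. Over the 250 bases before the start, 78.0% of the bases were identical in the alignment of Nlrp9a with Nlrp9c, 72.8% for Nlrp4b with Nlrp4a and 67.6% for Nlrp4c with Nlrp4b. Pairs of genes from different groups lay between 46.8% and 57.6%. Other copies were no more alike than these. Nlrp9b shared 52.8% with Nlrp9a and with Nlrp9c, and Nlrp4f shared 48.4% to 52.0% with the other Nlrp4 genes. The first start of Nlrp4a shared 49.2% with Nlrp4c. The windows of Nlrp4f and Nlrp9b lay inside the GENCODE spans of these genes, that of Nlrp4f largely in exons. Their values therefore cannot show whether the sequence before the annotated gene differs from that of the other copies. The Nlrp4a window of the 72.8% match and of the run given below precedes its second start. It too lay inside the gene, so it is not sequence before the annotated gene. The window before the first start of Nlrp4a, outside the gene, shared 54.4% with Nlrp4b. Nlrp9a and Nlrp9c shared an unbroken run of 106 bases, which began 118 bases before the start of Nlrp9a and 162 bases before that of Nlrp9c. The longest run common to Nlrp4a, Nlrp4b and Nlrp4c was CCAATCACATGG, which began 50, 54 and 18 bases before their starts. This run was found, on either strand, in 6 of 32851 RefSeq windows of 250 bases, belonging to 5 genes: these 3, Dcxr and Oscp1.

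Short motifs were searched in the same windows. CCAAT was present on either strand in the 250 bases before the start of 7 of the 9 genes, against 33.8% of all windows, and CAGCTG in 3 of the 9, against 13.0%. CACATG was present in 3 of the 9, against 12.3%, and TAATTG in 2 of the 9, against 7.17%. CANNTG, which includes CAGCTG and CACATG, was present in 8 of the 9, against 66.2% of all windows. Genes with several starts were counted once if any window held the motif, and copies of a group share their sequence, so these counts are not independent. By single window, CCAAT was present in 8 of 12, CAGCTG in 5, CACATG in 4, TAATTG in 2 and CANNTG in 11. The genes without CCAAT were Nlrp4f and Nlrp9b, whose windows lay inside the annotated genes. For Nlrp4a, CCAAT was present only before the second start, whose window also lay inside the annotated gene. The motifs were chosen with the sequences in view, so the shares cannot show an excess over all windows. A match is a description of the letters and not a binding site.

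The transcripts themselves were also alike within groups, which limits the counts of single copies. In alignments of the longest transcripts, Nlrp9a and Nlrp9c shared 88.2% of bases, Nlrp9a and Nlrp9b 84.0%, and Nlrp4a and Nlrp4c 85.3%. Nlrp4c was closest to Nlrp4e, a gene outside the 10, at 93.2%. Of all stretches of 50 bases in a transcript, 11.9% of those in Nlrp4c were also found in other genes, chiefly Nlrp4e. The share was 9.04% for Nlrp5 (chiefly the pseudogene Nlrp5-ps), 7.08% for Nlrp4f (chiefly the pseudogene Nlrp4g), between 4.99% and 6.54% for the Nlrp9 genes, 3.02% for Nlrp4a and 0.835% for Nlrp2. It was 0 for Nlrp4b and Nlrp14, where no such stretch was found in another annotated gene. How reads shared between genes were assigned is not given in the sources used here. Nlrp2 also shares 105 exon bases with a pseudogene on the opposite strand, and Nlrp9b shares 136 with a pseudogene on the same strand.

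Each ovary had between 25247770 and 34406296 counts, and 19423 genes passed the filter on low counts, among them all 10 oocyte NLRP genes. Bnc1 itself was at 13.9, 13.4 and 13.1 CPM (TMM-normalized counts scaled to a common library size) in WT and 18.7, 13.7 and 11.5 CPM in Bnc1tr/tr ovaries, and counts over the whole gene do not show whether the deletion was present. The summed level of 8 corpus luteum markers was 22620 to 26420 CPM in WT and 6953 to 12450 CPM in Bnc1tr/tr ovaries, and 7 of the 8 fell, against 4.19% of all genes tested. The 10 granulosa markers summed to 4305 to 5328 CPM in WT and 4551 to 7319 CPM in Bnc1tr/tr ovaries (edgeR called 1 of 10, which rose, and DESeq2 2), and 6 macrophage markers to 332 to 377 CPM and 236 to 480 CPM (edgeR and DESeq2 called 0 of 6, with 1 at an unadjusted p under 0.05). The 7 oviduct markers reached 135 CPM in WT replicate 1 and 499.9 CPM in Bnc1tr/tr replicate 3, against 11.7 to 27.8 CPM in the other 4 ovaries (edgeR called 0 of 6 tested and DESeq2 1, with 1 at an unadjusted p under 0.05 in edgeR). Over all genes tested edgeR called 2.88% higher and 7.06% in either direction, and 24.2% had an unadjusted p under 0.05 in either direction. Oocyte markers were present in every ovary, with Zp3, a gene of the zona pellucida, between 106 and 189 CPM. The part of these tissue differences in the values below was not tested, and in whole ovaries fewer cells of a type and less RNA per cell cannot be told apart.

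Nlrp14 and Nlrp5 supplied most of the family's transcripts in every ovary. Levels are compared between genes as RPKM, which are the CPM divided by the kilobases of exon. In WT ovaries Nlrp14 was at 22.6 ± 3.32 RPKM and Nlrp5 at 16.8 ± 1.74 RPKM (SD, n = 3), and no WT value of one overlapped those of the other. Nlrp4f followed at 4.84 ± 0.571 RPKM, Nlrp9b at 3.34 ± 0.518 RPKM, Nlrp4a at 2.55 ± 0.256 RPKM and Nlrp2 at 2.37 ± 0.322 RPKM (SD, n = 3). The WT values of Nlrp9b and Nlrp4a overlapped between ovaries, as did those of Nlrp4a and Nlrp2. Compared within each ovary, Nlrp9b was above Nlrp4a and Nlrp4a above Nlrp2 in 6 of 6, and no test was made of this order. The lowest were Nlrp4b (1.62 ± 0.174 RPKM), Nlrp9a (1.19 ± 0.349 RPKM), Nlrp9c (0.607 ± 0.150 RPKM) and Nlrp4c (0.257 ± 0.0294 RPKM), each SD over 3 ovaries. The highest WT mean was 87.9-fold the lowest. When the longest transcript was used as the length, Nlrp14 and Nlrp5 came closer, at 24.5 and 23.2 RPKM, with Nlrp14 above Nlrp5 in 5 of 6 ovaries. In Bnc1tr/tr ovaries Nlrp14 was at 31.5 ± 5.82 RPKM and Nlrp5 at 17.7 ± 3.79 RPKM (SD, n = 3). As shares of the family's summed RPKM, Nlrp14 held 40.6%, 40.8% and 39.3% in WT ovaries and 44.4%, 45.2% and 41.9% in Bnc1tr/tr ovaries. Nlrp5 held 29.4%, 29.5% and 30.9% in WT and 23.0%, 24.5% and 26.1% in Bnc1tr/tr ovaries, so that the genotypes did not overlap for either gene. Nlrp4f held 8.32%, 8.81% and 8.76%, against 10.8%, 10.5% and 9.95%, again without overlap. Nlrp4c held 0.442%, 0.467% and 0.468%, against 0.656%, 0.521% and 0.712%, also without overlap. The shares of the other members overlapped. Shares of a sum depend on each other, so a lower share does not show that a gene's own level fell. The shares were not tested.

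None of the 10 oocyte NLRP genes passed the threshold between the genotypes. Counts were compared with edgeR's quasi-likelihood test (two-sided, TMM normalization), with p values adjusted over all genes tested by the Benjamini-Hochberg method and a threshold of 0.05. At this threshold 7.06% of all genes tested were called in either direction and 2.88% were called higher in Bnc1tr/tr ovaries, against 0 of the 10. DESeq2 called 2 of the 10, against 12.5% of all genes, and limma-voom 0, against 6.71%. All 10 log2 fold changes were above 0, between 0.08 for Nlrp5 and 0.85 for Nlrp4c, with a median of 0.42 against 0.018 over all genes tested. An unadjusted p under 0.05 with a higher value in Bnc1tr/tr was seen for 4 of the 10 (Nlrp4c, Nlrp4f, Nlrp9c and Nlrp14), and for 11.9% of all genes. Every Bnc1tr/tr ovary lay above every WT ovary for 3 of the 10 (Nlrp4c, Nlrp4f and Nlrp14), and for 15.0% of all genes. The 10 values come from the same 6 ovaries and are not independent of each other, and the genes were chosen with earlier results of these data known. With library size as the only normalization the median of all genes was 0.12, and all 10 log2 fold changes were again above 0.

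Nlrp4f, associated with the SCMC, came closest to the threshold. It was at 19.6, 20.4 and 16.2 CPM in WT replicates 1, 4 and 7 and at 33.8, 22.4 and 30.9 CPM in Bnc1tr/tr replicates 1, 2 and 3. All Bnc1tr/tr values lay above all WT values, by a small margin in replicate 2. The means were 18.7 ± 2.21 and 29.0 ± 5.92 CPM (SD, n = 3), with a log2 fold change of 0.63 (standard error 0.17, edgeR with Benjamini-Hochberg adjustment, adjusted p = 0.0639). It passed the threshold under 4 of 14 alternatives. One of these left out Bnc1tr/tr replicate 2, where the log2 fold change was 0.79 (edgeR with Benjamini-Hochberg adjustment, adjusted p = 0.0225).

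Nlrp14 was the most abundant member per length. It was at 87.3, 86.2 and 66.4 CPM in WT and at 127.5, 88.3 and 118.9 CPM in Bnc1tr/tr ovaries. The lowest Bnc1tr/tr ovary, replicate 2, lay barely above WT replicate 1. The log2 fold change was 0.48 (standard error 0.16, edgeR with Benjamini-Hochberg adjustment, adjusted p = 0.120), and 0.62 without Bnc1tr/tr replicate 2 (edgeR with Benjamini-Hochberg adjustment, adjusted p = 0.0496).

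Nlrp5, which encodes the SCMC core protein MATER, had the smallest difference. It was at 86.8, 85.3 and 71.6 CPM in WT and at 90.5, 65.6 and 101.5 CPM in Bnc1tr/tr ovaries, where replicate 2 was the lowest of all 6 ovaries. The means were 81.2 ± 8.41 and 85.9 ± 18.4 CPM (SD, n = 3). The log2 fold change was 0.08 (standard error 0.16, edgeR with Benjamini-Hochberg adjustment, adjusted p = 0.803), with a 95% interval from -0.30 to 0.46. It was -0.01 without WT replicate 7 and -0.06 without Bnc1tr/tr replicate 3. Nlrp2, another maternal gene linked to the SCMC, was at 9.59, 7.82 and 7.48 CPM in WT and at 11.03, 7.85 and 10.93 CPM in Bnc1tr/tr ovaries. The genotypes overlapped in Nlrp2, and its log2 fold change was 0.26 (standard error 0.18, edgeR with Benjamini-Hochberg adjustment, adjusted p = 0.421).

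**Figure D1:**
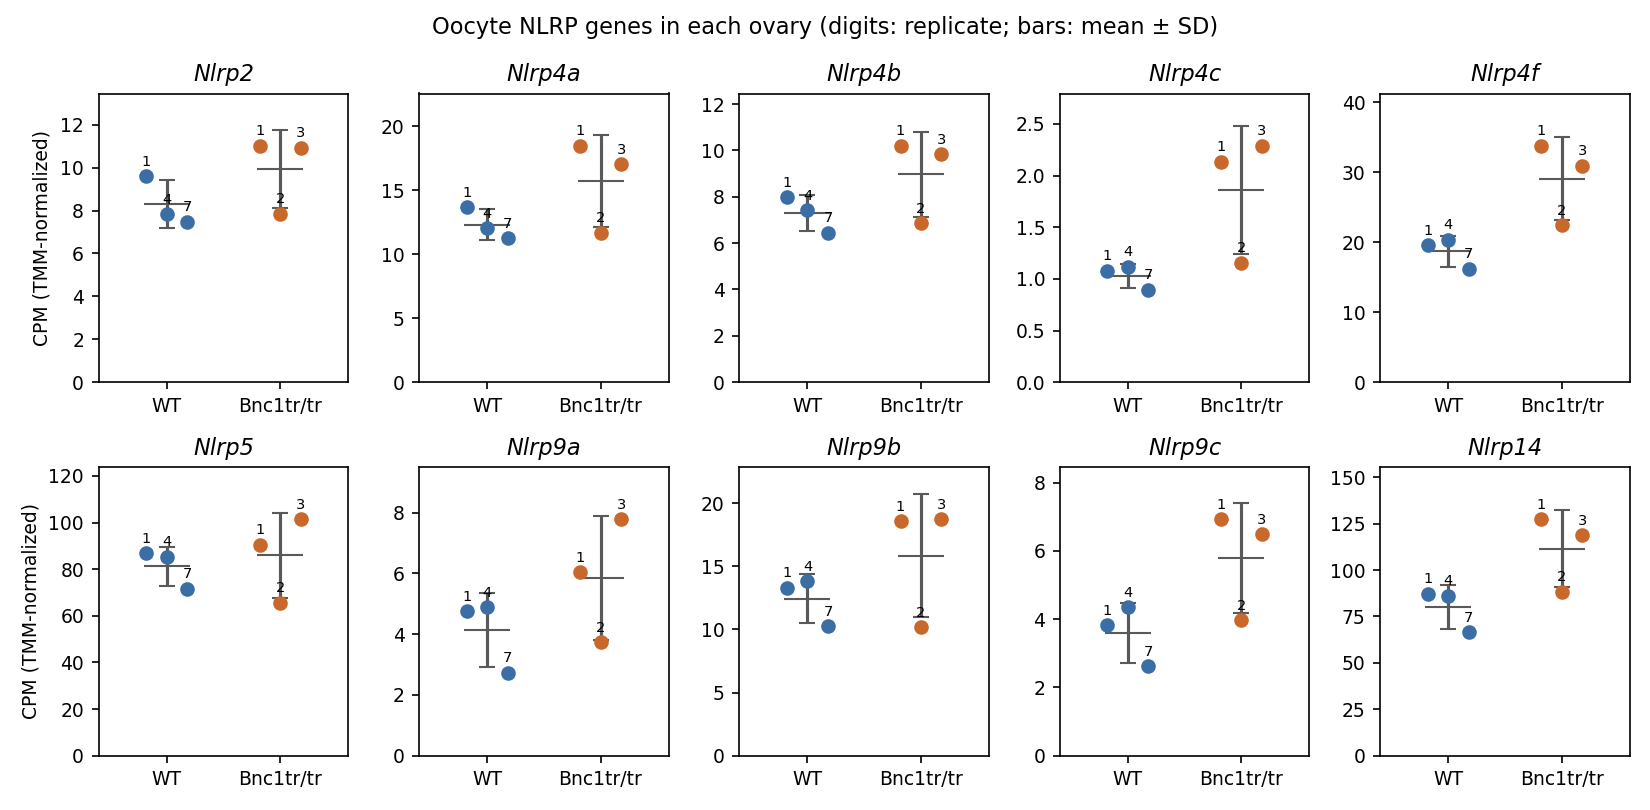
TMM-normalized CPM of the 10 oocyte NLRP genes in each ovary. Points are single ovaries (blue WT, orange Bnc1tr/tr) labelled with their replicate, and bars are the mean ± SD over 3 ovaries. Bnc1tr/tr replicates 1 and 3 lie above all WT ovaries for all 10 genes, and replicate 2 does so for 3.

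The copies on chromosome 7 of the Nlrp4 group differed in level and in the size of their difference. Nlrp4a was at 13.7, 12.1 and 11.2 CPM in WT and at 18.5, 11.7 and 17.02 CPM in Bnc1tr/tr ovaries, and Nlrp4b at 7.99, 7.43 and 6.45 CPM and at 10.21, 6.85 and 9.83 CPM. For both genes Bnc1tr/tr replicate 2 lay among the WT ovaries. Their log2 fold changes were 0.35 (standard error 0.18, edgeR with Benjamini-Hochberg adjustment, adjusted p = 0.280) and 0.30 (standard error 0.19, adjusted p = 0.377). Nlrp4c rested on few reads, with 29, 37 and 26 counts in WT and 60, 30 and 65 counts in Bnc1tr/tr ovaries. In CPM these were 1.08, 1.12 and 0.90 against 2.13, 1.15 and 2.29, so Bnc1tr/tr replicate 2 lay barely above WT replicate 4. Its log2 fold change of 0.85 was the highest of the 10, with a 95% interval from 0.12 to 1.58 (edgeR with Benjamini-Hochberg adjustment, adjusted p = 0.152).

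Of the other genes of the Nlrp4 group, Nlrp4g and Nlrp4e lay within the range of the 10. In WT ovaries Nlrp4g was at 2.21 RPKM and Nlrp4e at 0.748 RPKM, against 1.62 RPKM for Nlrp4b and 0.257 RPKM for Nlrp4c. Nlrp4e, the nearest copy of Nlrp4c, was at 2.90, 2.39 and 2.35 CPM in WT and at 2.67, 1.46 and 2.36 CPM in Bnc1tr/tr ovaries, a log2 fold change of -0.23 (edgeR with Benjamini-Hochberg adjustment, adjusted p = 0.654). The pseudogene Nlrp4g, the nearest match of Nlrp4f, was at 4.39, 5.56 and 3.73 CPM and at 7.86, 4.66 and 5.53 CPM, a log2 fold change of 0.40 (edgeR with Benjamini-Hochberg adjustment, adjusted p = 0.371). Neither passed the threshold or an unadjusted p of 0.05, with edgeR, DESeq2 or limma-voom. Nlrp4d, a pseudogene, had 0 counts in all 6 ovaries, which allows up to 3 counts per ovary for counting error alone.

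The Nlrp9 genes, of which Nlrp9b is also known as a sensor of viral RNA in the gut, differed in level among themselves and overlapped between the genotypes. Nlrp9b was at 13.3, 13.8 and 10.24 CPM in WT and at 18.6, 10.20 and 18.7 CPM in Bnc1tr/tr ovaries, where replicate 2 was the lowest of all 6. Nlrp9a was at 4.76, 4.89 and 2.72 CPM in WT and at 6.05, 3.73 and 7.79 CPM in Bnc1tr/tr ovaries, and Nlrp9c at 3.83, 4.35 and 2.62 CPM and at 6.94, 3.96 and 6.49 CPM. For each gene Bnc1tr/tr replicate 2 lay among or below the WT ovaries. Their log2 fold changes were 0.35 for Nlrp9b (standard error 0.24, adjusted p = 0.423), 0.51 for Nlrp9a (standard error 0.33, adjusted p = 0.387) and 0.69 for Nlrp9c (standard error 0.28, adjusted p = 0.186), all from edgeR with Benjamini-Hochberg adjustment.

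The 10 genes moved together across the ovaries. WT replicate 7 was the lowest WT ovary and Bnc1tr/tr replicate 2 the lowest Bnc1tr/tr ovary for all 10, as the plot of centred values shows. Bnc1tr/tr replicates 1 and 3 were above every WT ovary for all 10. Bnc1tr/tr replicate 2 was above every WT ovary for 3 of the 10 and below every WT ovary for 2 (Nlrp5 and Nlrp9b). Without that ovary the median log2 fold change of the 10 was 0.60, 9 of the 10 had an unadjusted p under 0.05 and 2 passed the threshold (Nlrp4f and Nlrp14), where 12.7% of all genes were higher at an unadjusted p under 0.05 and 6.40% were called in either direction. Leaving out 3 other ovaries lowered the median. The median was 0.28 without WT replicate 7, 0.30 without Bnc1tr/tr replicate 1 and 0.27 without Bnc1tr/tr replicate 3, with 1 of the 10 at an unadjusted p under 0.05 in each (against 8.41%, 11.1% and 9.55% of all genes) and 0 past the threshold. Without WT replicate 1 or 4 the median was 0.48 in both cases, with 2 and 3 of the 10 at an unadjusted p under 0.05 and 0 past the threshold. For these 2 settings the share of all genes at an unadjusted p under 0.05 was not counted. In Bnc1tr/tr replicate 2 the summed luteal markers were 12450 CPM, the highest of its genotype, and the summed oocyte reference genes 978 CPM, the lowest of its genotype. The part of these differences in the values of the NLRP genes was not tested.

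**Figure D2:**
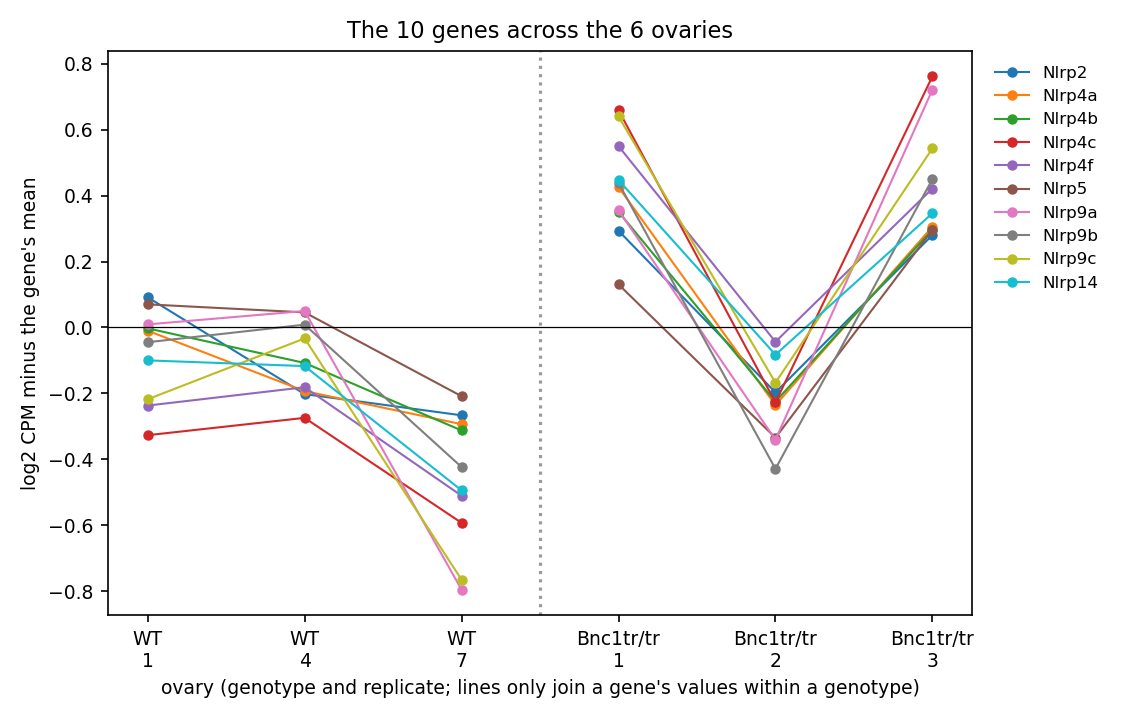
The log2 CPM of each oocyte NLRP gene minus its mean over the 6 ovaries, by ovary. Each colour is a gene, and lines only join values within a genotype. WT replicate 7 and Bnc1tr/tr replicate 2 are the lowest ovaries of their genotype for all 10 genes.

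Transcripts of other SCMC genes were compared next, since Nlrp5 encodes a part of it. The 5 partners Ooep, Tle6, Khdc3, Padi6 and Zbed3 had log2 fold changes above 0, with a median of 0.35, and 1 of the 5 passed the threshold, against 2.88% of all genes called higher. Zbed3, a zinc finger protein that joins the complex, was at 190.7, 176.8 and 161.1 CPM in WT and at 361.9, 241.6 and 319.9 CPM in Bnc1tr/tr ovaries. The genotypes did not overlap, and Zbed3 rose by a log2 fold change of 0.80 (standard error 0.15, edgeR with Benjamini-Hochberg adjustment, adjusted p = 0.0227). This call was lost without WT replicate 4 (adjusted p = 0.113), without WT replicate 7 (adjusted p = 0.0903) and without Bnc1tr/tr replicate 3 (adjusted p = 0.0711), all from edgeR. Khdc3, also called Filia, was at 15.1, 15.7 and 13.7 CPM in WT and at 24.9, 16.8 and 22.6 CPM in Bnc1tr/tr ovaries, without overlap, a log2 fold change of 0.53 (edgeR with Benjamini-Hochberg adjustment, adjusted p = 0.0821). Ooep (0.33), Tle6 (0.30) and Padi6 (0.35) overlapped between the genotypes and were short of the threshold.

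The NLRP genes were set beside other genes of the oocyte. Of 18 oocyte reference genes, a list written with earlier results of these ovaries known, 7 rose and 0 fell in edgeR, against 2.88% and 4.19% of all genes tested, and the median log2 fold change of the 18 was 0.77, against 0.42 for the NLRP genes, and the difference between these medians was not tested. Those that rose were Mos (1.12), a kinase of the meiotic arrest, the RNA-binding protein gene Dazl (1.09), the secreted protein gene Oosp1 (1.04), the growth factor genes Bmp15 (0.93) and Gdf9 (0.78), the chaperone gene Npm2 (0.83) and Btg4 (0.82), which acts in the clearance of maternal mRNA. Every Bnc1tr/tr ovary lay above every WT ovary for 13 of the 18, against 15.0% of all genes. The zona pellucida genes Zp2 and Zp3 had log2 fold changes of 0.22 and 0.31 and overlapped, and Ddx4, a germ cell helicase, was at -0.07. Calls in this list changed when single ovaries were left out. Of the 18, 0 passed the threshold without WT replicate 4 or WT replicate 7, and 3 without WT replicate 1. Without a Bnc1tr/tr ovary, 2 passed without replicate 1, 1 without replicate 3 and 13 without replicate 2. Calls over all genes changed too, from 1372 to 320, 518 and 781 without WT replicates 4, 7 and 1. They were 979, 634 and 1282 without Bnc1tr/tr replicates 1, 3 and 2.

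**Figure D3:**
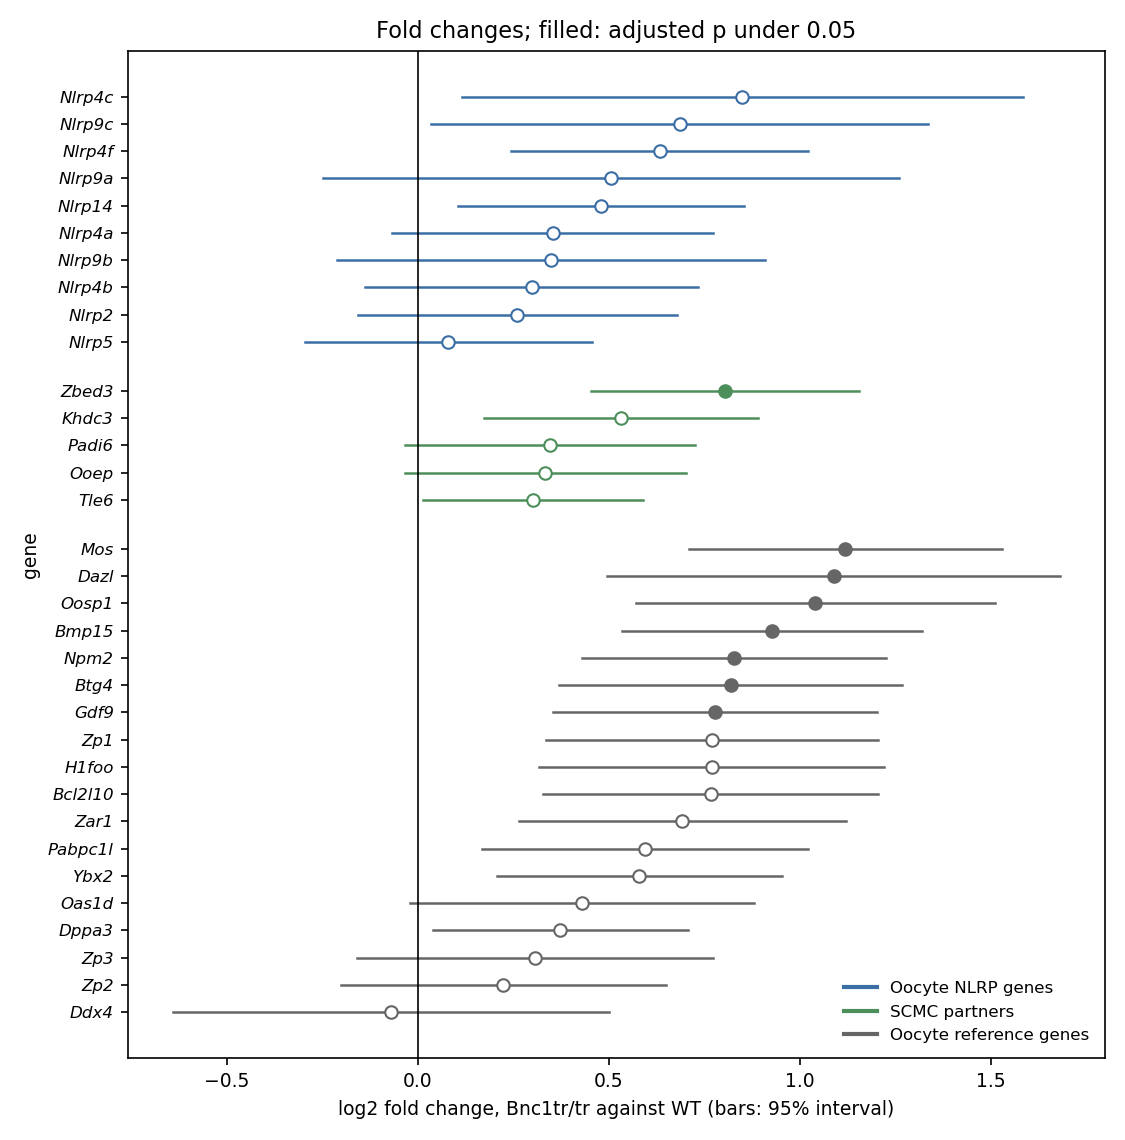
log2 fold changes of Bnc1tr/tr against WT for the 10 oocyte NLRP genes (blue), 5 SCMC partners (green) and 18 oocyte reference genes (grey). Bars are 95% intervals of the edgeR fit, and filled points passed an adjusted p of 0.05: 0 of 10, 1 of 5 and 7 of 18.

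Set against the oocyte reference genes within each ovary, the summed NLRP counts were lower in Bnc1tr/tr ovaries. Such ratios need no normalization between libraries. The summed counts of the 10 genes were 262, 278 and 277 per 1000 summed counts of the 18 reference genes in WT and 215, 227 and 226 per 1000 in Bnc1tr/tr ovaries. The genotypes did not overlap, with a difference of -0.29 on the log2 scale, and here Bnc1tr/tr replicate 2 lay with the other ovaries of its genotype. Most of the difference was that of Nlrp5, which was at 91.7, 97.4 and 101 per 1000 in WT and at 59.9, 67.1 and 70.7 per 1000 in Bnc1tr/tr ovaries (96.8 ± 4.73 and 65.9 ± 5.50, SD, n = 3, log2 difference -0.56). Nlrp14 was at 92.3, 98.5 and 93.9 per 1000 and at 84.3, 90.3 and 82.8 per 1000 (log2 difference -0.15). Ratios of Nlrp2, Nlrp4a, Nlrp4b and Nlrp9b were also lower without overlap, with log2 differences from -0.37 to -0.29. Those of Nlrp4c, Nlrp4f, Nlrp9a and Nlrp9c overlapped between the genotypes. The share of all genes lower without overlap on this scale was not counted. In the fit on this scale given below, the median log2 fold change of all genes was -0.59. Nlrp4f stood at 22.3 ± 1.38 per 1000 in WT and 22.3 ± 0.699 per 1000 in Bnc1tr/tr ovaries (SD, n = 3). When edgeR was fitted with the summed reference counts as library sizes, 8 of the 10 log2 fold changes were below 0, from -0.56 for Nlrp5 (standard error 0.29, adjusted p = 0.127) to -0.0018 for Nlrp4f, and 0 passed the threshold. This scaling moved all genes down, with a median of -0.59 and 20.1% of all genes called, and the median of the 10 was -0.22. With edgeR 0 of the 10 then had an unadjusted p under 0.05, and the standard errors were larger than with TMM (0.29 against 0.16 for Nlrp5).

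**Figure D4:**
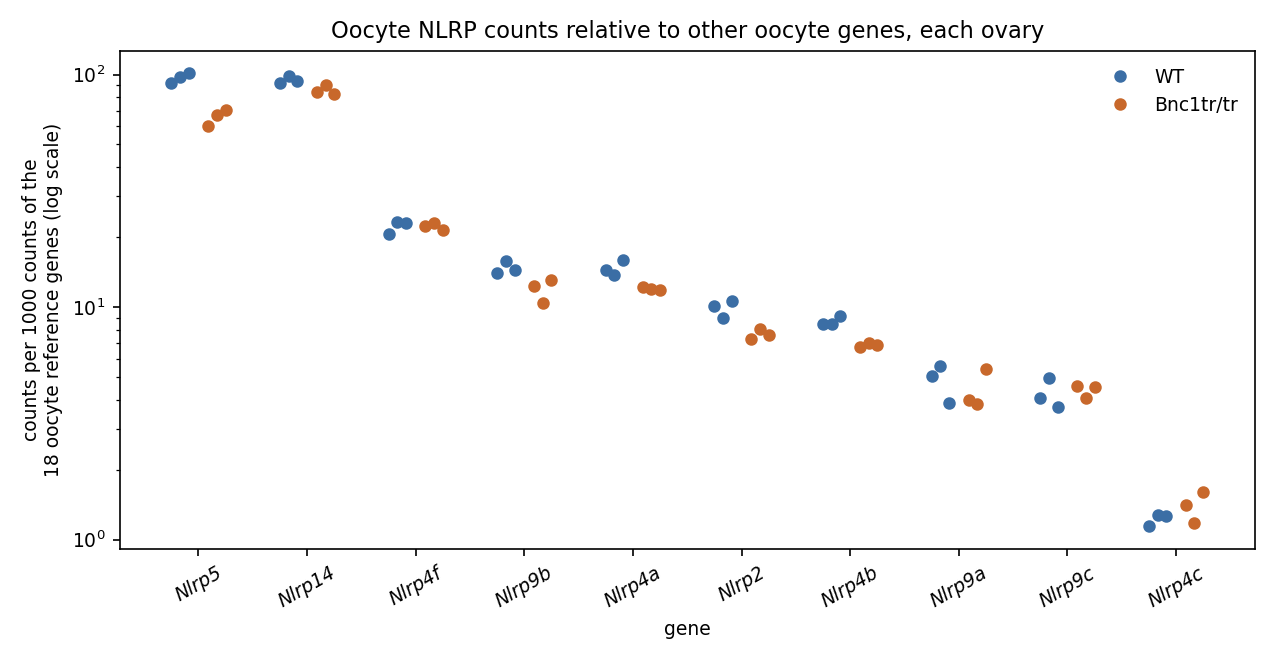
Counts of each oocyte NLRP gene per 1000 summed counts of the 18 oocyte reference genes, on a log axis. Points are single ovaries in the order of replicates (blue WT, orange Bnc1tr/tr). The Nlrp5 points lie between 91.7 and 101 in WT and between 59.9 and 70.7 in Bnc1tr/tr, and the Nlrp4f points overlap.

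The size and sign of that difference depended on the oocyte gene used as denominator. With each of the 18 reference genes alone, an alternative added after the data were seen, the summed NLRP counts were lower without overlap for 12, higher without overlap for 2 and overlapping for 4. The log2 difference ran from -0.78 against Mos to 0.43 against Ddx4. Per count of Zp2, the summed NLRP counts were 2.035, 1.992 and 2.002 in WT. They were 2.25, 2.29 and 2.05 in Bnc1tr/tr ovaries, which is 0.13 higher on the log2 scale. Per count of Gdf9 they were 1.28, 1.38 and 1.40 in WT and 0.958, 1.008 and 1.024 in Bnc1tr/tr ovaries, with a log2 difference of -0.44. The ratio is thus one to chosen oocyte genes, which themselves changed unequally.

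**Figure D5:**
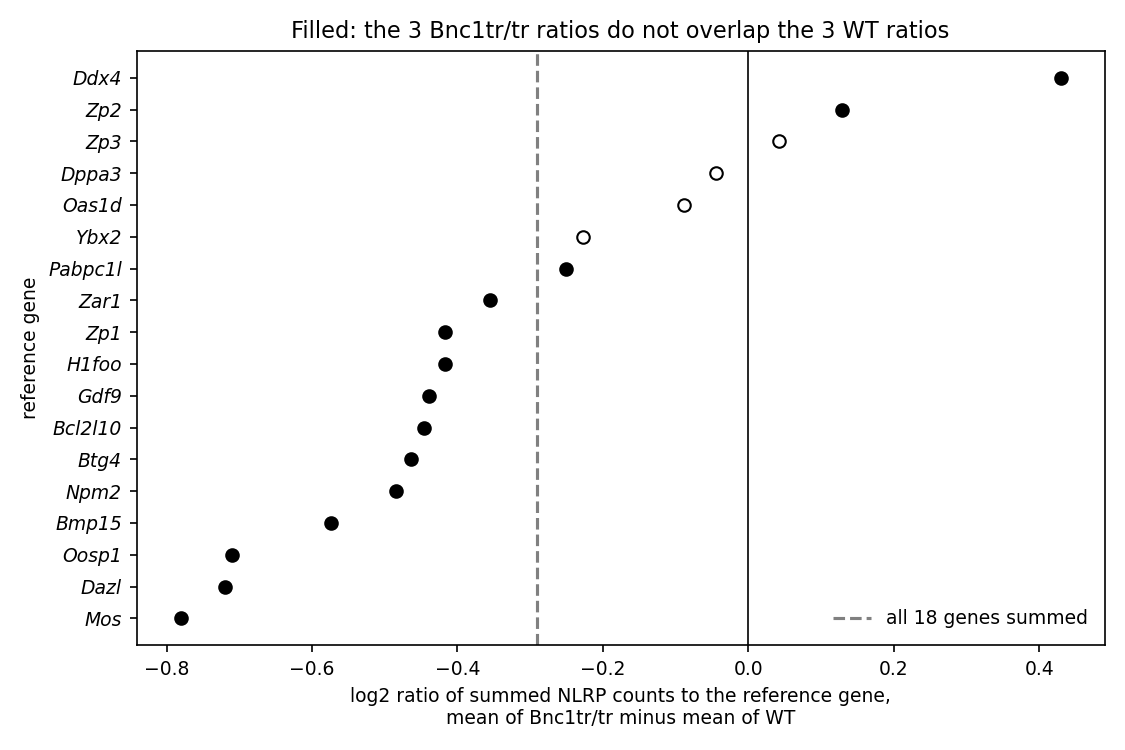
Difference between the genotypes (mean of Bnc1tr/tr minus mean of WT) in the log2 ratio of summed NLRP counts to each oocyte reference gene alone. Filled points are genes for which the ratios of the genotypes do not overlap, and the dashed line at -0.29 is the ratio to all 18 summed. Differences run from -0.78 (Mos) to 0.43 (Ddx4).

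Within the family, the members changed unequally relative to Nlrp5, which was taken as the denominator after its values were seen. Nlrp14 had 1.006, 1.011 and 0.928 counts per count of Nlrp5 in WT and 1.41, 1.35 and 1.17 in Bnc1tr/tr ovaries, without overlap (log2 difference 0.41). Nlrp4f had 0.226, 0.239 and 0.227 counts per count of Nlrp5 in WT and 0.373, 0.341 and 0.305 in Bnc1tr/tr ovaries, again without overlap (0.56). Ratios of Nlrp4a (0.27), Nlrp4b (0.22), Nlrp4c (0.73) and Nlrp9c (0.62) to Nlrp5 were also higher without overlap, and those of Nlrp2, Nlrp9a and Nlrp9b overlapped. All 5 SCMC partners were higher relative to Nlrp5 without overlap, with log2 differences from 0.23 for Tle6 to 0.73 for Zbed3. No test was made of these ratios, and they do not show which gene of a pair changed. Nlrp5 had the smallest log2 fold change of the 10, at 0.08, and all 5 partners were at 0.30 or more. Differences above 0 were thus set by the choice of denominator. The share of all genes higher without overlap relative to Nlrp5 was not counted.

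NLR and inflammasome genes of somatic and immune cells had log2 fold changes in both directions. Of 22 listed genes 19 were tested and 3 passed the threshold, of which 1 rose and 2 fell, against 7.06% of all genes called. Their median log2 fold change was -0.10. Nod2, a sensor of bacterial cell wall fragments, rose from 3.23, 3.50 and 3.97 CPM in WT to 9.03, 5.89 and 7.33 CPM in Bnc1tr/tr ovaries, a log2 fold change of 1.06 (standard error 0.20, edgeR with Benjamini-Hochberg adjustment, adjusted p = 0.0259). Its relative Nod1 fell from 63.4, 62.4 and 61.7 CPM to 47.4, 49.5 and 49.1 CPM, a log2 fold change of -0.36 (standard error 0.071, edgeR with Benjamini-Hochberg adjustment, adjusted p = 0.0279). Nlrx1, a mitochondrial NLR protein, fell from 31.1, 32.8 and 34.97 CPM to 24.4, 26.1 and 25.3 CPM, a log2 fold change of -0.38 (standard error 0.087, edgeR with Benjamini-Hochberg adjustment, adjusted p = 0.0411). The genotypes did not overlap for any of these 3. None of the 3 calls held without WT replicate 1, 4 or 7 or without Bnc1tr/tr replicate 3, and with library size as the only normalization Nod2 alone passed. Nlrp3, the inflammasome sensor of macrophages, was at 1.52, 1.42 and 1.72 CPM in WT and at 1.89, 1.39 and 1.38 CPM in Bnc1tr/tr ovaries. Of the 9 inflammasome genes, among them Casp1, Il1b and Gsdmd, edgeR, DESeq2 and limma-voom called 0, and 1 had an unadjusted p under 0.05 in edgeR, against 24.2% of all genes. Macrophage markers, whose sums are given above, overlapped between the genotypes, and their part in these values was not tested.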

How the data were processed

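Total RNA of 3 WT and 3 Bnc1tr/tr ovary samples was extracted with TRIzol and sequenced as single-end Ion Proton libraries. The authors deposited raw counts, whole numbers of reads per gene and ovary without normalization, for genes named by symbol. The submitters' processing notes name the builds mm10 and Sscrofa10.2 without a role, and the aligner, counter and annotation are not given in the sources used here. Genotypes were taken from the sample labels. The paper counts 3 ovaries per genotype, from heterozygous matings and compared between littermates, but the labels tie no library to an animal or litter. The p values measure the spread between these samples.

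Genes were filtered with filterByExpr (minimum count 10), scaled by TMM and tested in edgeR 4.0.16 under R 4.3.3 (functions glmQLFit and glmQLFTest at their defaults). The p values were two-sided and adjusted over 19423 genes by the Benjamini-Hochberg method. The scripts were first tested on simulated data. A prior count of 2 was used for log2 CPM. RPKM used the union of exons in GENCODE M21 (GRCm38). Alternatives were other size factors, library size only, summed oocyte reference counts as library sizes, no filter, at least 10 counts in every ovary, DESeq2 1.42.0, limma-voom (limma 3.58.1), a robust fit, each ovary left out, and the longest transcript as length. Single reference genes as denominators were added after the data were seen. Promoter windows and transcripts were aligned with Biopython 1.88.

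The 10 genes were set by name. The other genes named are the lists of Nlrp4 copies, somatic NLR and inflammasome genes, SCMC partners, oocyte transcription factors and oocyte reference genes, with all called ones given, and the 10 genes whose centred log2 CPM lay closest to the members' mean profile. Granulosa, luteal, macrophage and oviduct markers were only counted and summed. All 96 genes listed were found, 1 under an older symbol. Members, lists and motifs were chosen with earlier results of these data known, and the motifs with the sequences in view. Floors and intervals of counts cover counting error only.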

Additional observations from a re-analysis of the deposited data

How the results depend on the processing

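No paired analysis was possible because the labels tie no library to an animal or litter. Over 14 alternatives for each of the 10 oocyte NLRP genes, 124 of the resulting values kept their direction and side of the threshold, 6 passed it and 10 changed direction. With library size only, 1 of the 10 passed (Nlrp4f, adjusted p = 0.0368), with no filter 1 (Nlrp4f, adjusted p = 0.0449), with DESeq2 2 (Nlrp4f, adjusted p = 0.00952, and Nlrp14, adjusted p = 0.0479), and between 0 and 2 when an ovary was left out, the 2 being without Bnc1tr/tr replicate 2. Relative to the oocyte reference genes the log2 fold change was -0.37 for Nlrp2, -0.29 for Nlrp4a, -0.34 for Nlrp4b, -0.0018 for Nlrp4f, -0.56 for Nlrp5, -0.13 for Nlrp9a, -0.31 for Nlrp9b and -0.14 for Nlrp14, where the median of all genes was -0.59 by construction of the scaling. When an ovary was left out, that of Nlrp5 lay between -0.057 (without Bnc1tr/tr replicate 3) and 0.24, with -0.013 without WT replicate 7. Of the 5 SCMC partners, 2 passed with library size only, 0 relative to the oocyte genes, 2 with DESeq2 and 0 to 3 without an ovary (0 without WT replicate 4, WT replicate 7 or Bnc1tr/tr replicate 3). Of the 18 oocyte reference genes, 12 passed with library size only, 0 relative to their own sum, 11 with no filter, 13 with DESeq2 and 0 to 13 without an ovary. Of the somatic NLR and inflammasome genes, 1 passed with library size only and 0 to 2 without an ovary. The members' summed WT level was 56.1 RPKM, 66.8 RPKM with the longest transcript and 53.8 to 60.3 RPKM without a WT ovary. The log2 ratio of summed NLRP to oocyte reference counts was -0.32 to -0.27 without an ovary, and 0.13, 0.042 and 0.43 with Zp2, Zp3 or Ddx4 alone as the denominator. With the other 15 genes alone it was -0.78 (Mos), -0.72 (Dazl), -0.71 (Oosp1), -0.57 (Bmp15), -0.49 (Npm2), -0.46 (Btg4), -0.45 (Bcl2l10), -0.44 (Gdf9), -0.42 (Zp1), -0.42 (H1foo), -0.35 (Zar1), -0.25 (Pabpc1l), -0.23 (Ybx2), -0.089 (Oas1d) and -0.045 (Dppa3). The number of all genes called was 1372, and 320 without WT replicate 4, 518 without WT replicate 7, 634 without Bnc1tr/tr replicate 3 and 781 without WT replicate 1, against 2420 with DESeq2 and 3901 relative to the oocyte genes. Apart from settings that leave out ovaries or change the scaling, the cause of these moves was not tested. Nlrp4c had the fewest counts of the 10, 26 to 65 per ovary.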

Other observations

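Transcription factors of the oocyte had log2 fold changes in both directions, 4 above and 3 below 0. Of the 7 tested, edgeR and limma-voom called 0 and DESeq2 1, and 2 had an unadjusted p under 0.05 in edgeR, against 7.06% of all genes called and 24.2% at an unadjusted p under 0.05 in edgeR. Nobox, a homeobox factor that oocytes need to grow, was at 27.4, 23.2 and 22.3 CPM in WT and at 46.7, 28.4 and 39.4 CPM in Bnc1tr/tr ovaries, without overlap, a log2 fold change of 0.65 (edgeR with Benjamini-Hochberg adjustment, adjusted p = 0.0722). Sohlh1, a factor of early follicles, was at 3.20, 3.41 and 3.24 CPM and at 2.31, 2.58 and 2.29 CPM, also without overlap, a log2 fold change of -0.46 (edgeR with Benjamini-Hochberg adjustment, adjusted p = 0.189). The log2 fold change of Figla, which activates zona pellucida genes, was -0.03. Taf4b reached 28.1 CPM in Bnc1tr/tr replicate 1 against 10.3 to 13.2 CPM in the other 5 ovaries.

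Of all genes outside the 10, Fbxw26 had the values most like the family's mean profile over the 6 ovaries, with a root mean square difference of 0.0479 log2 units between centred log2 CPM. It was at 5.58, 5.71 and 4.35 CPM in WT and at 8.46, 5.54 and 8.57 CPM in Bnc1tr/tr ovaries. The next were Vwa2 (0.0585), Gm1859 (0.0589), Oas1e (0.0623), Oog3 (0.0627), Speer5-ps1 (0.063), Ncapg (0.0647), Fbxw15 (0.0663), Mcm10 (0.0683) and Angpt4 (0.0685). None of these 10 passed the threshold in edgeR, and their log2 fold changes ran from 0.43 to 0.55. They were picked for closeness to the profile over the same 6 ovaries, so fold changes like those of the family follow from the choice. The NLRP genes themselves were at 0.0724 (Nlrp14) to 0.194 (Nlrp9a) from their own mean.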
